A study of Chrysanthemum x morifolium with 12 samples.

Results

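The ovate family probes are 3 microarray probes, PD0028_011900, PD0028_150392, and PD0028_154888, out of 176026 probes designed on expressed sequences of chrysanthemum (*Chrysanthemum* × *morifolium*). The probes were chosen by name, because the study lists them as ovate family transcription factor genes with a higher signal in white than in green petals. The list was drawn from these same arrays, so the level of each probe in white petals is given below as a description without a test. PD0028_011900 and PD0028_150392 are annotated through the *Arabidopsis* gene model AT3G52525.1 as *OVATE FAMILY PROTEIN 6* (*OFP6*), and PD0028_154888 through AT2G36026.1 as an ovate family protein. Each probe stands for a separate contig, and whether the pair annotated as *OFP6* reads 1 gene or several was not tested.

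Ray floret petals of Feeling White (FW), Feeling Green Dark (FGD), and Feeling Green (FG) at the middle stage of flower development, and leaves of FG, were measured on 12 arrays, with 3 biological replicates in each of 4 groups. FW, which has white petals, and FGD, which has dark green petals, arose as bud sports from FG, which has green petals, so the 3 cultivars share 1 parental line, and each color is represented by a single cultivar. Plants of all groups were grown in a greenhouse in natural daylight. Total RNA of whole petals or leaves was hybridized by the one-color method. In such bulk RNA, a larger number of cells that express a gene and more RNA per cell cannot be told apart.

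Ovate family proteins are found only in plants and carry a conserved C-terminal OVATE domain. The family is named after *OVATE*, a gene that affects fruit shape in tomato. In *Arabidopsis*, several members act as transcriptional repressors, and members bind homeodomain proteins of the TALE class, which comprises the KNOX and BEL1-like proteins. The files and lists used here name no target gene of the chrysanthemum proteins, so the BEL1-like probe of the study's list is the only possible partner that can be followed.

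The study marks PD0028_011900 as the *OFP6* gene that it followed by RT-qPCR. The primers are shown because they are the only sequences held here that were read from a transcript of the family. Both are written 5′ to 3′, the reverse primer being on the opposite strand.
OFP6 forward: gggattattatcaaggcttttactgaga
OFP6 reverse: ggtgccttaagtcattttgaacatgga
The forward primer has 28 bases with a GC content of 35.7%, and the reverse primer 27 bases with 40.7%. The RT-qPCR values were not analysed here.

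Each spot has an intensity from which the scanner software had subtracted the background. The level of a probe is its log2 intensity minus the 75th percentile of that array, so that a level of 0 is the intensity below which 3 in 4 probes lie. That percentile was 308 to 347 on the petal arrays and 188 to 209 on the leaf arrays. A probe counts as detected on an array where the software marked it well above background, as it did for 63.2% to 69.6% of probes on an array. The lowest intensity of a detected probe was 7.86 to 9.81. The software writes a small positive intensity, about as large as its own error, for a spot that is not significantly above background, and such values have no order. Of 22 Chl biosynthesis probes, 18 had their highest mean level in FG leaves, and for 13 of them every leaf array exceeded every petal array. The same counts were not made over all probes, so they describe the leaf arrays and do not test the tissue labels. The files name no marker of petals.

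In white petals all 3 ovate family probes were detected on every array, and their intensities there exceeded those on each of the other 9 arrays. Outside white petals, PD0028_150392 was detected on 8 of 9 arrays at a low level, and the other 2 probes were detected on none. For PD0028_150392, FGD petals and FG leaves lay close together and FG petals lay below both.

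PD0028_011900 had intensities of 190.3, 148.3, and 156.9 on the FW petal arrays. The intensities were 2.30, 2.16, and 2.04 in FGD petals, 4.52, 4.93, and 6.78 in FG leaves, and 2.11, 2.11, and 2.09 in FG petals. The white petals were high on every array and overlapped with no other group. On the 6 arrays of green petals, the spot was not significantly above background, and before the software's replacement the background-subtracted signal was as low as −4.15. The 3 leaf spots were significantly above background by the software's own test but not well above it.

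The level of PD0028_011900 was −0.94 ± 0.21 in FW petals (log2, SD, n = 3), which placed it between the 65.4th and 68.9th percentiles of all probes on those arrays. It was −7.22 ± 0.17 in FGD petals, −5.20 ± 0.35 in FG leaves, and −7.35 ± 0.02 in FG petals. The small SD of the green petals is that of the values written in place of a signal. Because the probe was below detection in these groups, only bounds can be given for the ratios, computed against the lowest intensity of a detected probe on the same arrays. FW petals were at least 18.7-fold above FGD petals, at least 12.6-fold above FG leaves, and at least 21.7-fold above FG petals. Dividing by the written intensities instead would give 84.8-fold over FG petals, a ratio whose denominator was not measured.

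PD0028_150392 had intensities of 380.3, 236.3, and 269.0 in FW petals. The intensities were 19.2, 23.3, and 24.6 in FGD petals, 14.4, 15.7, and 15.1 in FG leaves, and 9.41, 8.95, and 11.6 in FG petals. All spots were significantly above background, and only FG petal replicate 2 was not well above it. The error of a single spot, as the software gives it, was 10.01% to 10.04% of the intensity in FW petals, 12.4% to 14.6% in FGD petals, 14.7% to 15.9% in FG leaves, and 19.4% to 22.8% in FG petals.

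The level of PD0028_150392 was −0.13 ± 0.38 in FW petals, −3.86 ± 0.16 in FGD petals, −3.70 ± 0.06 in FG leaves, and −5.11 ± 0.19 in FG petals (log2, SD, n = 3). FW petals were 13.3-fold above FGD petals, 11.9-fold above FG leaves, and 31.7-fold above FG petals. The ratios over FGD petals and FG leaves rest on spots detected on all arrays, and that over FG petals on a group with 2 of 3 spots detected. The size of the ratio over FG petals depends on the background correction: with normexp, which adds an offset of 50 to every signal, it was 5.88-fold. The corresponding values of the other probes were at least 3.71-fold for PD0028_011900 and at least 2.72-fold for PD0028_154888. FGD petals were 2.39-fold above FG petals, and FG leaves were 2.67-fold above FG petals. In neither case did the arrays of the groups overlap, in intensity or in level. How many of all probes lacked overlap between the same groups was not counted. Scaling enlarged the ratio of FG leaves over FG petals, since the mean intensities were 15.1 and 9.98. The percentile used for scaling was 188 to 209 on the leaf arrays and 339 to 346 on the FG petal arrays. Neither FGD petals nor FG leaves shared a slide with FG petals, so slide and group cannot be told apart in these ratios. The FG arrays were also used to choose the probe, so these ratios were not tested.

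PD0028_154888 had intensities of 106.5, 77.7, and 75.1 in FW petals. The intensities were 1.91, 6.38, and 3.03 in FGD petals, 1.70, 1.60, and 2.88 in FG leaves, and 3.62, 3.91, and 1.65 in FG petals. The white petals were again high on all 3 arrays. Of the other 9 spots, none was well above background, and 5 were significantly above it: 2 in FGD petals, 1 in FG leaves, and 2 in FG petals.

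The level of PD0028_154888 was −1.89 ± 0.29 in FW petals, −6.60 ± 0.90 in FGD petals, −6.63 ± 0.53 in FG leaves, and −6.91 ± 0.70 in FG petals (log2, SD, n = 3). The last 3 groups lay within each other's spread and have no order. FW petals were at least 9.69-fold above FGD petals, at least 6.52-fold above FG leaves, and at least 11.2-fold above FG petals. The written intensities would give 32.4-fold over FG petals. Set against the 99th percentile of the negative control spots, which was 2.92 to 11.7 on the 12 arrays, PD0028_150392 was above it on all arrays. PD0028_011900 exceeded it on 3 of 3 FW petal arrays and 1 leaf array, and PD0028_154888 on 3 of 3 FW petal arrays and 2 FG petal arrays.

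**Figure D1:**
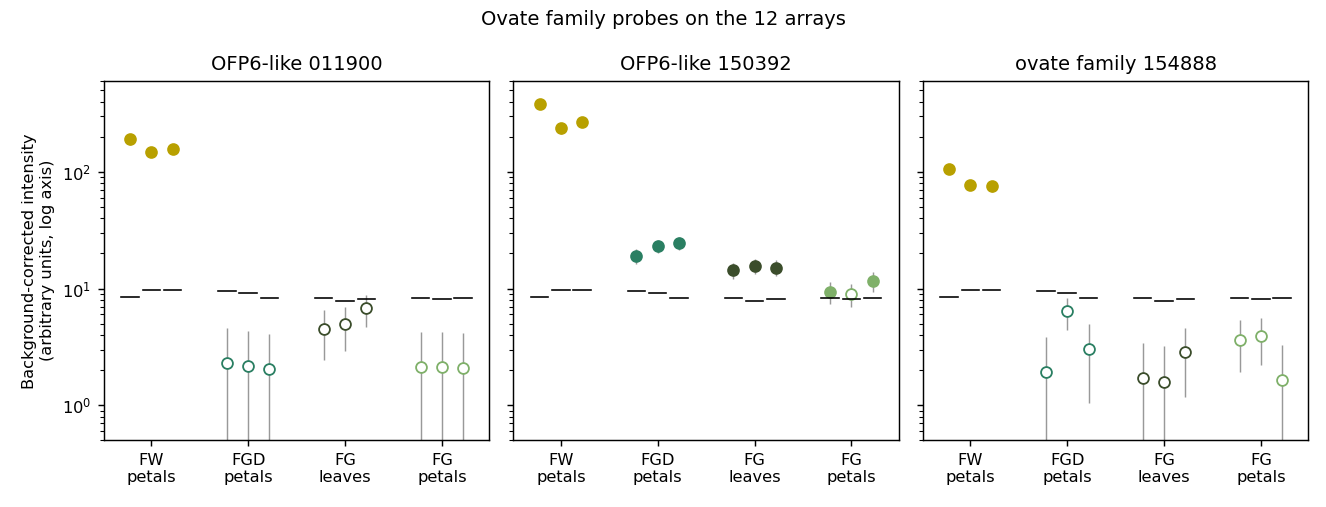
Background-corrected intensity (arbitrary units, log axis) of the 3 ovate family probes on each array, with FW petals, FGD petals, FG leaves, and FG petals from left to right and replicates 1 to 3 within each group. Filled points were well above background and open points were not; gray bars are the software's error of the spot and run off the lower edge where the error exceeds the intensity; black ticks mark the lowest intensity of a detected probe on that array. The FW petal points lie between 75.1 and 380.3, above all points of the other groups.

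How uncommon such a pattern was among all probes was counted on the same arrays. The lowest FW petal array exceeded the highest of the other 9 arrays for 3 of 3 ovate family probes and for 20806 of 176026 probes (11.8%). Detection on all 3 FW petal arrays and on none of the other 9 was found for 2 of 3 ovate family probes and for 168 of 176026 probes (0.0954%). Because the ovate family probes were selected on part of these values, the shares are a background and no test. The pattern depends on the rule for detection: 35 probes had it when detection meant significantly above background and 58 when it meant above the 99th percentile of the negative controls, with no ovate family probe among either. Leaving out an array loosens the rule, so the count of 168 can then only stay or rise. It was 278 without FW petal replicate 2 and 260 without FW petal replicate 3. No ovate family probe had a mean intensity of 100 over the 12 arrays. Their means were 43.7 for PD0028_011900, 85.7 for PD0028_150392, and 23.8 for PD0028_154888.

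**Figure D2:**
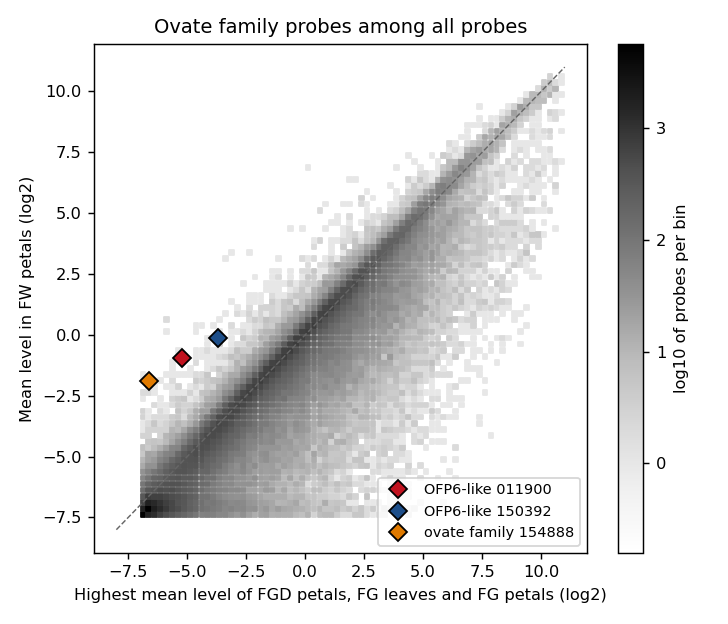
Mean level in FW petals (vertical axis, log2) against the highest mean level of FGD petals, FG leaves, and FG petals (horizontal axis, log2) for all probes, in bins shaded by the log10 number of probes, with the ovate family probes as diamonds and equality as a dashed line. The diamonds lie above the line, at −0.94, −0.13, and −1.89 in FW petals against −5.20, −3.70, and −6.60.

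The arrays lay on 3 slides, which allow part of the comparison within a slide. FW petal replicate 1 shared the first slide with all FG petal arrays. There it was at least 25.3-fold above FG petals for PD0028_011900, 42.1-fold for PD0028_150392, and at least 14.2-fold for PD0028_154888. FW petal replicates 2 and 3 shared the second slide with FGD petal replicates 1 and 2. There they were at least 16.0-fold above FGD petals for PD0028_011900, 11.7-fold for PD0028_150392, and at least 7.99-fold for PD0028_154888. No FW petal array shared a slide with a leaf array.

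Among the FW petal arrays, replicate 1 had the highest level for all 3 ovate family probes. It exceeded the mean of replicates 2 and 3 by 0.34 for PD0028_011900, 0.61 for PD0028_150392, and 0.50 for PD0028_154888 (log2). Over the 110773 probes detected on all FW petal arrays, the median of this difference was −0.01, and replicate 1 was the highest for 38.0%. Slide and plant cannot be told apart in this difference.

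The comparison of FGD petals with FG leaves, both green tissues, sets against each other groups that were not used to choose the probes. It was tested with limma in a fit of all probes on the 12 arrays, so that the estimate of the spread also draws on the FW and FG petal arrays, with Benjamini-Hochberg adjustment over 176026 probes. PD0028_150392 differed by −0.16 ± 0.18 between FGD petals and FG leaves (log2 difference, SE, adjusted p = 0.474 by limma). With only these 2 groups in the fit, the SE was 0.12 (adjusted p = 0.311 by limma). The 95% confidence interval of −0.56 to 0.25 leaves room for differences of that size in either direction. Slide and group are partly confounded here, since FGD petal replicates 1 and 2 lay on the second slide and replicate 3 on the third with all leaf arrays. With slide as a block, the difference was −0.12 ± 0.19 (log2, SE, adjusted p = 0.636 by limma). The intensities themselves did not overlap and were higher in FGD petals, whereas the levels overlapped, since the 75th percentile was lower on the leaf arrays. Lack of overlap between these groups was not counted over all probes. A total of 59.2% of all probes passed an adjusted p of 0.05 in this comparison, 44679 higher and 59512 lower in FGD petals (48328 higher and 41459 lower with quantile normalization), and the median log2 difference over all probes was −0.22.

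PD0028_011900 was below detection in both groups, and its 3 FGD intensities are those written in place of a signal. The fit called it lower in FGD petals (adjusted p = 6.54e-06 by limma), 1 of 3 ovate family probes against 33.8% of all probes. But this call sets leaf spots that were not well above background against FGD values that have no order, so neither a difference nor a ratio is given. Raising every intensity under 100 to 100 ended the call, but this was fixed in advance, since every spot of both groups lay under 100. The spot of PD0028_011900 was significantly above background on 3 of 3 leaf arrays and on 0 of 3 FGD petal arrays. Only 1 of the leaf spots exceeded the 99th percentile of the negative controls. How many of all probes were split in this way was not counted, so no difference is read from it. PD0028_154888 was also below detection in both groups and was not called (adjusted p = 0.963 by limma). Of its spots, 2 of 3 in FGD petals and 1 of 3 in FG leaves were significantly above background, so that no difference is given for it either.

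The study lists 8 other transcription factor probes as higher in FW than in FG petals, chosen on the same arrays: 4 *MYB113-like* probes, whose relatives regulate anthocyanin synthesis in *Arabidopsis*, and single probes annotated as RADIALIS-like, AUXIN RESPONSE FACTOR 1, a SMAD/FHA domain protein, and a bHLH protein. FW petals exceeded FG petals 5.42- to 50.1-fold over these 8, with 6 values being bounds. None of the 8 was well above background in white petals alone. PD0028_044537 missed this pattern through 1 leaf array, and a difference between the 8 and the ovate family probes was not tested. In FG leaves 7 of the 8 were detected on at least 1 array, and in FGD petals 6 of the 8. For 7 of the 8, the lowest FW petal array exceeded the other 9 arrays. The exception was the RADIALIS-like probe PD0028_048158, at −2.73 ± 0.45 in FW petals and 3.26 ± 0.55 in FG leaves (log2, SD, n = 3).

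**Figure D3:**
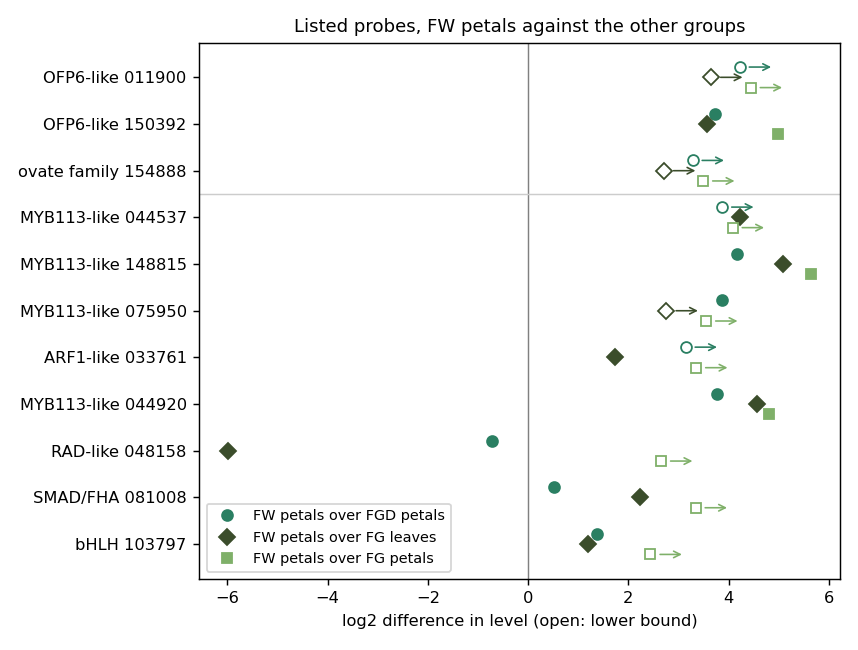
Log2 difference in level of FW petals from FGD petals (circles), FG leaves (diamonds), and FG petals (squares) for the 3 ovate family probes, above the gray line, and the 8 other listed probes. Open symbols with arrows are lower bounds, since the other group was below detection; the ovate family values lie between 2.71 and 4.99.

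One BEL1-like homeodomain probe, PD0028_009958, stands on the same list with a lower signal in white than in green petals. BEL1-like proteins pair with KNOX proteins in plant meristems and organs, and some bind ovate family proteins in *Arabidopsis*. Its intensities were 7.53, 2.97, and 7.18 in FW petals, 202.8, 201.5, and 88.8 in FGD petals, 1.69, 1.60, and 3.21 in FG leaves, and 114, 143.2, and 111.3 in FG petals. It was detected on all 6 arrays of green petals and on none of white petals or leaves. FW petals were at least 16.2-fold below FGD petals and at least 12.1-fold below FG petals. The BEL1-like probe was listed as lower, and the ovate family probes as higher, in FW than in FG petals on these same arrays, so the opposite direction between these groups was fixed by the choice of probes. In FG leaves, PD0028_009958, PD0028_011900, and PD0028_154888 were all below detection, and PD0028_150392 was detected. PD0028_150392 was also detected beside the BEL1-like probe in FGD petals and on 2 of 3 FG petal arrays.

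**Figure D4:**
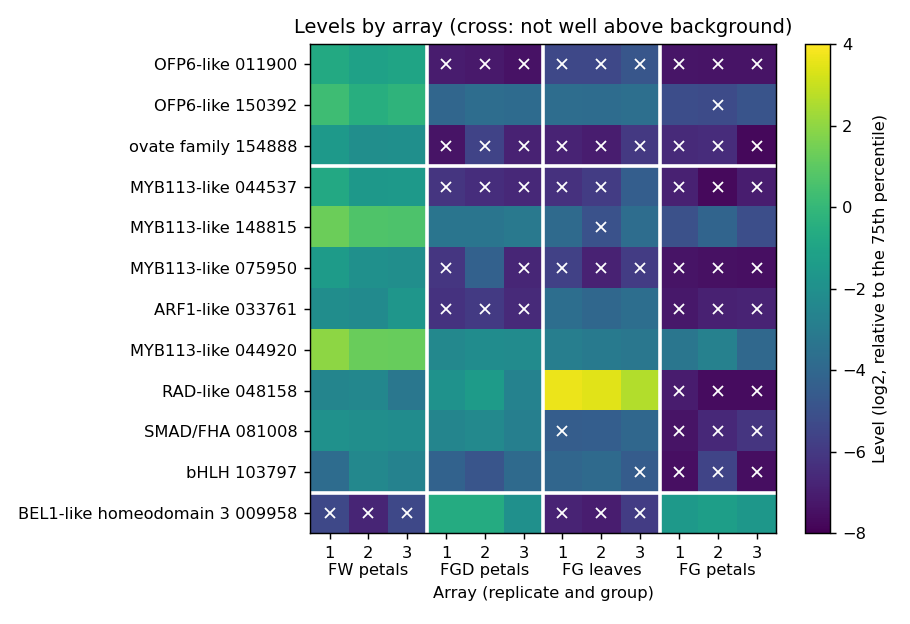
Levels (log2 relative to the 75th percentile of the array, color scale) of the 3 ovate family probes, the 8 other listed probes, and the BEL1-like homeodomain 3 probe, from top to bottom, on the 12 arrays, in the order FW petals, FGD petals, FG leaves, and FG petals. Crosses mark spots not well above background; the ovate family probes have none in FW petals, and the BEL1-like probe has none in FGD and FG petals.

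The levels of the ovate family probes are described over the 12 arrays, which the probes share and on part of which all 3 were chosen. Pearson's r of the levels was 0.959 between PD0028_011900 and PD0028_150392, 0.928 between PD0028_011900 and PD0028_154888, and 0.942 between PD0028_150392 and PD0028_154888. A high r was in part fixed by that choice. Moreover, PD0028_011900 and PD0028_154888 were below detection on all arrays outside white petals. By r, the other ovate family probes took places 59 to 382 among 110659 probes detected on all FW petal arrays, so the likeness is not particular to them. Among the other listed probes, the most alike were *MYB113-like* probes for each of them: PD0028_044537 for PD0028_011900 (r = 0.977) and PD0028_150392 (r = 0.975), and PD0028_044920 for PD0028_154888 (r = 0.965). Among all 110659 probes compared, the 3 nearest to each were probes without a name in the lists used here, with r of 0.983 to 0.990. The nearest to PD0028_011900, PD0028_185126, was detected only in white petals, at −4.71 ± 0.09 in FW petals, −7.39 ± 0.18 in FGD petals, −6.81 ± 0.12 in FG leaves, and −7.50 ± 0.10 in FG petals (log2, SD, n = 3). PD0028_048432 and PD0028_090408 followed it. Nearest to PD0028_150392 were PD0028_160851, PD0028_027870, and PD0028_164478, and the last of these was at 0.35 ± 0.32 in FW petals, −4.86 ± 0.49 in FGD petals, −4.67 ± 0.28 in FG leaves, and −6.84 ± 0.50 in FG petals. PD0028_164478 was detected on 2 of 3 FGD petal arrays and on no array of FG leaves or FG petals, so its levels in those 2 groups are below detection. Nearest to PD0028_154888 were PD0028_063311, PD0028_018930, and PD0028_047917, all detected in every group. A high r does not mean a change of like size: PD0028_063311 was at 3.50 ± 0.03 in FW petals, 2.80 ± 0.11 in FGD petals, 2.85 ± 0.02 in FG leaves, and 2.81 ± 0.06 in FG petals.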

How the data were processed

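The authors deposited the scanner output of 12 one-color arrays, with background-corrected intensities, background-subtracted signals, and detection marks (well above background, significantly above background) for each spot from Agilent Feature Extraction, not scaled between arrays. The labels name version 10.7.1.1 of that software and the file headers 10.10.1.1. The deposited log2 table of the same arrays was centered for each probe on an unstated value. Its column medians were −0.12 to 0.19, and its group differences equalled those computed here within 3.2e-05.

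Here, outlier spots (7 to 37 on an array) were set to missing, and the level of a probe was its log2 intensity after scaling each array to its own 75th percentile. No spot was saturated. All 176026 probes were fitted with limma 3.58.1 in R 4.3.3, with a mean for each of 4 groups. Only FGD petals against FG leaves was tested, since the probes had been chosen on FW and FG petals. A bound sets the mean level of the brighter group against the mean, over arrays of the other, of the higher of the probe's level and the lowest level of a detected probe. The fit was run on simulated arrays with independent normal noise. That run held no slide effect and no values written in place of a signal, so it does not cover these. Figures were drawn with matplotlib 3.10.9. The number of arrays limits the precision, and 4854 control spots were left out.

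The probes, lists, and tests were chosen with earlier results of these data known. Named are the ovate family probes, the 8 other listed probes higher in FW petals, the BEL1-like probe, and for each ovate family probe the 3 probes of highest Pearson's r over the 12 arrays, among all probes detected on the FW petal arrays and among the listed probes. Alternatives were other scalings, background corrections, floors, detection rules, variance models, slide and replicate blocks, and leaving out each array. The sequences of the probes were not used here.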

Additional observations from a re-analysis of the deposited data

How the results depend on the processing

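When the median signals were corrected with normexp (offset 50, chosen after seeing the data), FW over FG petals was at least 3.71-fold for PD0028_011900, 5.88-fold for PD0028_150392, and at least 2.72-fold for PD0028_154888. In the same setting FGD petals minus FG leaves was −0.44 for PD0028_150392 (adjusted p = 0.00415 by limma), a call absent otherwise, and −0.51 for PD0028_154888 (adjusted p = 0.000366 by limma), with the sign reversed. With the 99th percentile of the negative controls as the floor, the bounds were 56.6-fold for PD0028_011900 and 26.7-fold for PD0028_154888. Within the first slide the 3 values were 25.3, 42.1, and 14.2. Leaving out 1 array gave 20.03 to 23.17, 27.51 to 35.65, and 10.02 to 11.99, in the order PD0028_011900, PD0028_150392, and PD0028_154888.

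The fitted values of FGD petals minus FG leaves measure no difference for PD0028_011900 and PD0028_154888. A floor of 100 gave 0 for PD0028_011900 and ended its call, which was fixed in advance, since every spot of both groups lay under it. Leaving out 1 array gave −2.12 to −1.81 for PD0028_011900, −0.22 to −0.07 for PD0028_150392, and −0.47 to 0.41 for PD0028_154888, with no call gained or lost. Over all alternatives the adjusted p was 5.36e-06 to 1 for PD0028_011900, 0.00415 to 1 for PD0028_150392, and 0.000366 to 1 for PD0028_154888. With a replicate block the differences were −2.02, −0.16, and 0.03 (adjusted p = 6.16e-05, 0.501, and 0.966 by limma) in the same order, with 101681 calls over all probes, and the block changed no call of the ovate family probes. Samples of the same number did not deviate together (correlations of −0.0335 to 0.0344), so the numbers pair nothing. A floor of 1 on background-subtracted signals, also chosen after seeing the data, changed none either. No ovate family probe passed a low signal filter (mean intensity of 100), so that no value is given under it. With slide as a block the fitted values were −2.21 for PD0028_011900, −0.12 for PD0028_150392, and −0.21 for PD0028_154888, and no call of these probes changed. Calls between FGD petals and FG leaves numbered 104191, with 54748 under that filter, 53154 with the floor of 100, 87902 with slide as a block, and 95752 to 105179 without 1 array. The share of them higher in FGD petals was 42.9%, but 53.8% with quantile normalization, 55.4% with the filter, and 22.7% with normexp. Probes detected in white petals alone numbered 168, with 35 when detection meant significantly above background and 58 when it meant above the 99th percentile of negative controls. Neither number includes an ovate family probe. Leaving out 1 array loosens the rule and can only keep or raise the count of 168, which was then 175 to 278. Normexp on the mean signals was not run, since the files used here have only the median signals.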
